A study of Mus musculus with 26 samples.

Results

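Nodal and Lefty signalling was followed through 9 genes chosen by name for their roles in the pathway, with earlier results of these data known. They are the ligands Nodal and Gdf3, the coreceptor Tdgf1 (Cripto), the receptor Acvr2b, the inhibitors Lefty1, Lefty2, Cer1 and Smad7, and the transcription factor Foxh1. These are 9 of the 55291 gene symbols in the count tables, and all 9 were found. RNA was sequenced from mouse embryonic stem cells (ESCs) and from cells labelled neural progenitor cells (NPCs), in 26 libraries of 10 groups. The study asked how gene expression responds when the transcription and looping factor CTCF lacks its first zinc finger, ΔZF1, a finger linked to RNA binding, and when an RNA that CTCF binds is cut short.

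All cells descend from E14, a mouse ESC line. In the rescue lines, both endogenous copies of Ctcf carry an mAID-eGFP degron tag, OsTIR1 sits on 1 copy of the Rosa26 locus, an mCherry reporter at Hb9 is homozygous, and a doxycycline-inducible Flag-Halo CTCF, either WT or ΔZF1, is homozygous at the Tigre locus. The WT line and the ΔZF1 line are 1 clone each. ESCs and NPCs of both lines (ESC-WT, NPC-WT, ESC-ΔZF1 and NPC-ΔZF1) were all treated for 24 h with 1 µM 5-Ph-IAA, which degrades the tagged CTCF, and with 1 µg/mL doxycycline, which switches on the rescue CTCF, so that the WT groups share the degradation and the treatment. Each of these 4 groups has 2 libraries. In the truncation experiment, Podxl pA and Grb10 pA cells carry a homozygous eGFP and SV40 polyadenylation insertion that ends the transcript of Podxl or Grb10 early, E14 is their unedited parent, and no degron treatment was applied. ESC E14, ESC Podxl pA, ESC Grb10 pA, NPC E14, NPC Podxl pA and NPC Grb10 pA have 3 libraries each. ESCs grew with LIF, CHIR99021 and PD0325901 in N2B27 with serum, and NPCs were made by 2 days of differentiation in N2B27 on laminin. The study calls its replicates biological but the sources used here do not say that they were separate cultures, so p-values measure the spread between these libraries, which may be technical.

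Nodal is a secreted ligand of the TGF-β family that binds activin receptors together with a Cripto coreceptor and leads to phosphorylation of SMAD2 and SMAD3, which enter the nucleus and, with FOXH1, activate target genes. Nodal itself and the Lefty genes are among these targets, and the Lefty proteins block Nodal outside the cell, so the pathway carries both positive and negative feedback. The pathway is known for laying out mesoderm, endoderm and the left-right axis of the embryo, it is active in cultured ESCs, and its inhibition favours neural differentiation.

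The libraries of the rescue lines held 6425179 to 28730435 counts each (median 15019046.5) and those of the truncation lines 1907505 to 8845087 (median 4472121). The targeted genes agreed in direction with the labels: Podxl averaged 246 ± 13.6 CPM (SD, n = 3, where CPM is counts per 1000000 of the TMM-adjusted library size) in NPC E14 and 22.5 ± 1.72 in NPC Podxl pA, and Grb10 averaged 795 ± 23.4 in NPC E14 and 54.6 ± 4.14 in NPC Grb10 pA. A gene total cannot show the ΔZF1 deletion, and Ctcf was at 462 ± 18.2 CPM in NPC-WT and 792 ± 9.18 in NPC-ΔZF1 (n = 2). It was at 570 ± 10.6 CPM in ESC-WT and 846 ± 20.4 in ESC-ΔZF1 (n = 2). The part of this difference in Ctcf RNA in the ΔZF1 comparisons below was not tested. In the truncation lines Ctcf was at 231 ± 2.23 CPM in ESC E14 and 148 ± 12.5 in ESC Grb10 pA (n = 3). No libraries held identical counts, and the chi-square per degree of freedom between replicates ran from 1.69 to 63.1, where 1 would be counting noise alone. The pair of NPC-WT libraries stood apart at 63.1, and ESC E14 replicate 1 and ESC Grb10 pA replicate 2 differed from their partners by up to 27.6 and 22.4. Calls of members that are described gene by gene below and rest on these libraries are also given without them. The lists of other pathway genes and of markers were not tested without them, so their calls may rest on these libraries. Of 10 neural progenitor markers, 6 could be tested in E14, where 3 were higher in NPCs than in ESCs (Sox1 with a log2 fold change of 4.01 ± 0.16, Pax6 with 1.63 ± 0.35 and Sox3 with 1.38 ± 0.20) and 1 was lower (Msi1). In the WT rescue line 7 were tested, with 3 higher (Zic1 with 3.40 ± 0.78, Sox1 with 1.68 ± 0.19 and Nes with 1.56 ± 0.18) and 1 lower (Zic2). Hes5 and Fabp7 of the same list had no more than 2 counts each in the NPC libraries.

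The 9 genes lie on 7 chromosomes of GRCm38, and all are protein-coding. Lefty2 (chr1:180893108-180899103, plus strand) and Lefty1 (chr1:180935022-180938400, plus strand) are neighbours. Nodal is at chr10:61417972-61425338 (plus strand), Gdf3 at chr6:122605403-122610087 (minus), Tdgf1 at chr9:110939603-110946158 (minus), Acvr2b at chr9:119402118-119434995 (plus), Cer1 at chr4:82881751-82885148 (minus) and Foxh1 at chr15:76668225-76669948 (minus). Counting ignored strand, and the only gene that overlaps a member is the antisense gene Gm47320 over Acvr2b, which shares 0 exon bases with it.

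The 2 Lefty genes are near copies, so how far their reads can be told apart bears on each Lefty value. Their coding sequences are 1104 bases each and 91.8% identical (1014 bases). Of the 50-base windows in Lefty1 exons 17.9% also occur in Lefty2, and 12% of those in Lefty2 occur in Lefty1. The 100 coding bases in which the pair differs most, read from GRCm38 with differing bases in capitals, show the letters that separate their reads (chr1:180935148-180935247 for Lefty1 and chr1:180893222-180893321 for Lefty2):
Lefty1: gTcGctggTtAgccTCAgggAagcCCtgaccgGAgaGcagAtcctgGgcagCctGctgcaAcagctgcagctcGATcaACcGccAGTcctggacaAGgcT
Lefty2: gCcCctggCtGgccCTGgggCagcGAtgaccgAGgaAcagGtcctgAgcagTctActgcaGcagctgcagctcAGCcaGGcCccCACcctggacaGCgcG
The capitals mark 30 differing bases. Since the counting of reads that match both genes is not given in the sources used here, the split between the pair is uncertain for reads from shared windows, and the genes were called in opposite directions in 4 comparisons below. Tdgf1 shares 8.86% of its 50-base windows with the pseudogene Tdgf1-ps1, Gdf3 and Cer1 share 1.77% and 1.78% with other genes, and the remaining members share 0.

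Promoters are shown for the ligand Nodal and its coreceptor Tdgf1, whose levels changed with differentiation below. RefSeq starts on GRCm38.p6 were matched for 4 members (Nodal, Tdgf1, Cer1 and Acvr2b), and the 250 bases before the start of Nodal (chr10:61417722-61417971, plus strand) and Tdgf1 (chr9:110946159-110946408, minus strand, written 5′ to 3′ along the gene) read as follows, with matches to TGTNNATT or AATNNACA, the letters of a FOXH1 site on either strand, and to CAGAC or GTCTG, those of a SMAD site, in capitals:
Nodal: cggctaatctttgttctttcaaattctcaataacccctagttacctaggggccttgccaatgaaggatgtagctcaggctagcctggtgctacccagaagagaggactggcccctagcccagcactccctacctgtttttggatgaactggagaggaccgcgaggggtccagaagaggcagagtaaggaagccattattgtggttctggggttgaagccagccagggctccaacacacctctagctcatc
Tdgf1: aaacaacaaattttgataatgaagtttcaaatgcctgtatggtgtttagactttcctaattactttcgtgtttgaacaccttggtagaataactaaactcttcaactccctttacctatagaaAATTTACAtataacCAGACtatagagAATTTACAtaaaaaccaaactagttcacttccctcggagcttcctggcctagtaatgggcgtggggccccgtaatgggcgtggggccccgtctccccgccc
The Tdgf1 window held 2 matches to the FOXH1 letters and 1 to the SMAD letters, and the Nodal window held 0 of either. Of 32851 RefSeq promoter windows of this length 10.9% held the FOXH1 letters and 42.2% the SMAD letters, and a match is a string of letters rather than a known site.

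Before differentiation no pathway member passed both thresholds with ΔZF1, with Smad7 nearest to a call. Of 9 members 8 passed the filter on low counts, and 0 of these 8 were dysregulated in ESC-ΔZF1 relative to ESC-WT, where a dysregulated gene has an edgeR adjusted p (Benjamini-Hochberg, over all 16641 genes tested) no higher than 0.05 and differs by 0.5 or more on the log2 scale. At an unadjusted p under 0.05 there were 3 (Smad7, Gdf3 and Nodal), beside 3019 of all 16641 genes tested. DESeq2 called 1 (Smad7), which was also called with no filter on low counts and with only the groups compared. Among all genes tested, 1.29% were up-regulated and 2.33% down-regulated in this comparison. The median log2 fold change of the 8 members was 0.24, beside -0.01 over all genes tested.

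After 2 days of differentiation the picture differed: the ligands Nodal and Gdf3 and both Lefty inhibitors were higher in NPC-ΔZF1 than in NPC-WT. Of the 8 members tested 4 were up-regulated, beside 7.19% of all genes, and 0 were down-regulated, beside 10.5%. By unadjusted p under 0.05 and by DESeq2, 1 member was lower (Smad7). At that unadjusted p there were 5 members in either direction, beside 5981 of all 16641 genes tested. On leaving out any 1 of the 4 NPC libraries, 4 to 6 members were called. The median log2 fold change of the members was 0.46, beside -0.00 over all genes. In bulk RNA, fewer cells of a type and less RNA per cell cannot be told apart, here or in any comparison below.

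**Figure D1:**
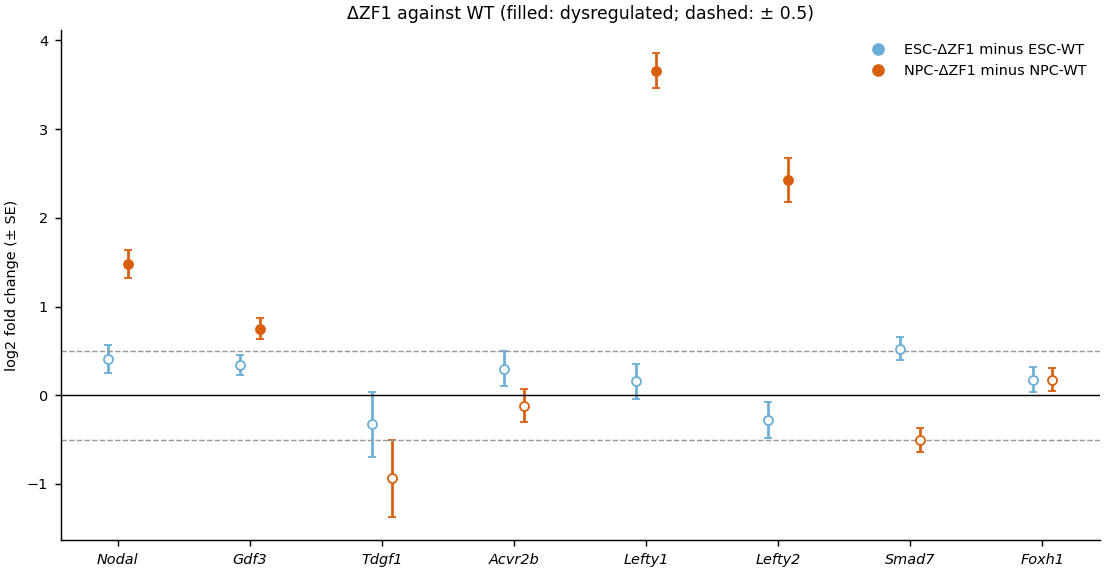
Log2 fold change of ΔZF1 against WT rescue cells (vertical axis) for the 8 members tested, in ESCs and in NPCs, with bars of 1 SE. Filled points were dysregulated and the dashed lines mark 0.5 in either direction. In NPCs Lefty1 (3.66), Lefty2 (2.43), Nodal (1.48) and Gdf3 (0.75) are filled, and in ESCs none is.

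The ligand Nodal was measured at 46.2 and 43.4 CPM in the ESC-WT libraries and 62 and 56.7 in the ESC-ΔZF1 libraries. Both ESC-ΔZF1 libraries were above both ESC-WT libraries, yet the log2 fold change of 0.41 ± 0.15 (SE, edgeR adjusted p = 0.185) did not pass. In NPC-WT it was at 10.5 and 14.7 CPM and in NPC-ΔZF1 at 33.5 and 35.6. The NPC groups did not overlap, and Nodal was up-regulated in NPC-ΔZF1 by 1.48 ± 0.16 (SE, edgeR adjusted p = 0.000403) on the log2 scale. Without NPC-WT replicate 1 the log2 fold change was 1.23 and without NPC-WT replicate 2 it was 1.71, and both stayed dysregulated. In such fits the remaining library of a group is assumed to vary like the other groups.

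Gdf3, a second ligand that uses the same coreceptor, was at 105 and 112 CPM in ESC-WT and 141 and 134 in ESC-ΔZF1, a log2 difference of 0.34 ± 0.11 (SE, edgeR adjusted p = 0.133). It was at 26.4 and 31.6 CPM in NPC-WT and 49.7 and 47.5 in NPC-ΔZF1. The NPC groups again stood apart, and Gdf3 was up-regulated in NPC-ΔZF1 by 0.75 ± 0.12 (SE, edgeR adjusted p = 0.00232) on the log2 scale, or 0.62 and 0.86 without NPC-WT replicate 1 or 2.

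Lefty1, a secreted inhibitor that is itself induced by Nodal, changed most among the members. In ESCs its libraries overlapped, at 9.17 and 12.6 CPM in ESC-WT and 11 and 13.8 in ESC-ΔZF1, with a log2 difference of 0.16 ± 0.20 (SE, edgeR adjusted p = 0.77). In NPC-WT it was at 5.08 and 6.7 CPM, the lowest of the 4 rescue groups, and in NPC-ΔZF1 at 71.6 and 74.2. Lefty1 was thus up-regulated in NPC-ΔZF1 by 3.66 ± 0.20 (SE, edgeR adjusted p = 8.67e-06) on the log2 scale, and by 3.44 and 3.82 without NPC-WT replicate 1 or 2.

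Lefty2, the paralogous inhibitor, was at 49.2 and 53.2 CPM in ESC-WT and 42 and 42.7 in ESC-ΔZF1, with a log2 difference of -0.28 ± 0.20 (SE, edgeR adjusted p = 0.545). It was at 2.37 and 4.9 CPM in NPC-WT and 18.2 and 18.3 in NPC-ΔZF1. Both NPC-ΔZF1 libraries exceeded both NPC-WT libraries, and Lefty2 was up-regulated by 2.43 ± 0.25 (SE, edgeR adjusted p = 0.000269) on the log2 scale. Leaving out NPC-WT replicate 1 gave 1.89 and leaving out NPC-WT replicate 2 gave 2.92, both still dysregulated.

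Cer1, a secreted antagonist of Nodal and BMP ligands, was near the limit of detection and was not tested. It had 0 counts in every ESC-WT, ESC-ΔZF1 and NPC-WT library, which over the NPC-WT group allows up to 0.0851 CPM, and 6 and 9 counts in the NPC-ΔZF1 libraries, or 0.270 CPM over the group. Cer1 was therefore at least 3.17-fold higher in NPC-ΔZF1 than the floor of 3 counts over the NPC-WT group, a bound that covers counting error only. With no filter on low counts its edgeR adjusted p was 0.0829, and DESeq2 gave none. In the truncation lines Cer1 had 0 or 1 count per library.

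Smad7, the intracellular inhibitor that competes for the receptor and is a feedback target of TGF-β signals, is on chromosome 18. It was at 159 and 168 CPM in ESC-WT and 243 and 229 in ESC-ΔZF1, and at 66.3 and 88.7 in NPC-WT and 54.6 and 54.6 in NPC-ΔZF1. It lay higher with ΔZF1 in ESCs and lower in NPCs, without overlap in either, and sat beside a threshold both times. In ESCs the log2 fold change was 0.53 ± 0.13 (SE, edgeR adjusted p = 0.0599), and in NPCs it was -0.50 ± 0.14 (SE, edgeR adjusted p = 0.0282), just short of the 0.5 threshold. Without NPC-WT replicate 1 it was -0.70 and dysregulated, and without NPC-WT replicate 2 it was -0.30 and not.

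Tdgf1, the coreceptor that Nodal and Gdf3 need for signalling, was at 647 and 630.3 CPM in ESC-WT and 503 and 515 in ESC-ΔZF1, a log2 difference of -0.33 ± 0.37 (SE, edgeR adjusted p = 0.733). In NPCs it was at 7.2 and 26.6 CPM in NPC-WT and 8.28 and 8.5 in NPC-ΔZF1. The NPC-WT libraries lay on both sides of the NPC-ΔZF1 pair, and the log2 difference of -0.94 ± 0.43 (SE, edgeR adjusted p = 0.15) did not pass. This value rests on the NPC-WT pair: it was -1.67 and called without NPC-WT replicate 1, and 0.20 without NPC-WT replicate 2.

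The receptor and the transcription factor did not pass the test. Acvr2b, a type II receptor for Nodal and activin, was at 38.7 and 62.1 CPM in NPC-WT and 45.4 and 46.9 in NPC-ΔZF1, a log2 difference of -0.12 ± 0.19 (SE, edgeR adjusted p = 0.683). In ESCs it was at 32.1 and 31.4 and 40.0 and 38 CPM. Foxh1, the DNA-binding partner of SMAD2 and SMAD3, was at 50.6 and 62.4 CPM in NPC-WT and 67 and 60.1 in NPC-ΔZF1, a log2 difference of 0.17 ± 0.13 (SE, edgeR adjusted p = 0.363). In ESCs Foxh1 was at 26.7 and 28.6 and 32.2 and 30.6 CPM. Both genes overlapped between the NPC groups. Leaving out NPC-WT replicate 1 or 2 gave NPC values of -0.43 or 0.24 for Acvr2b, which thus turned direction, and 0.03 or 0.31 for Foxh1, with none called.

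The effect of ΔZF1 was then compared between NPCs and ESCs in a single contrast of the 4 groups. It differed for 4 members: 3 had a higher effect in NPCs, beside 1.59% of all genes, and 1 a lower effect, beside 1.11%. The difference was 3.5 ± 0.28 (SE, edgeR adjusted p = 0.000401) for Lefty1 and 2.70 ± 0.32 (SE, edgeR adjusted p = 0.0036) for Lefty2. It was 1.07 ± 0.22 (SE, edgeR adjusted p = 0.0331) for Nodal and -1.03 ± 0.19 (SE, edgeR adjusted p = 0.0224) for Smad7. The Nodal call was lost with a replicate block (edgeR adjusted p = 0.0602). On leaving out any 1 of the ESC-WT, ESC-ΔZF1 or NPC-ΔZF1 libraries the Nodal and Smad7 calls were lost, with edgeR adjusted p from 0.143 to 0.192 and from 0.0890 to 0.131, although the differences stayed at 0.97 to 1.12 and -0.99 to -1.11. They were 0.81 or 1.27 for Nodal and -1.22 or -0.83 for Smad7 without NPC-WT replicate 1 or 2, all called. The Lefty1 and Lefty2 calls held when any 1 of the 8 libraries was left out, at 3.32 or 3.69 and at 2.18 or 3.19 without NPC-WT replicate 1 or 2, and the count of members called ran from 2 to 6 over these fits. For Gdf3 the difference was 0.41 ± 0.16 (SE, edgeR adjusted p = 0.227), so that its up-regulation in NPCs alone was not shown to differ from ESCs, although without NPC-WT replicate 2 it was 0.51 and called. For Tdgf1 and Acvr2b the value turned on the NPC-WT pair, at -1.34 and -0.73 and called without NPC-WT replicate 1, and at 0.51 and -0.08 without NPC-WT replicate 2.

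Of 31 other genes of the pathway tested, taken from lists by role, 3 were higher, beside 7.19% of all genes, and 4 lower, beside 10.5%, in NPC-ΔZF1 than in NPC-WT, shares near those of all genes. Of 5 ligands and processing enzymes edgeR called 0 and DESeq2 called 1, with 3 at an unadjusted p under 0.05, beside 5981 of all 16641 genes. Of 6 receptors and coreceptors Cfc1, the second Cripto-family coreceptor, rose by 4.31 ± 0.74 on the log2 scale and Tgfbr2, the TGF-β type II receptor, fell (-0.66 ± 0.19). Of 9 Smads and nuclear partners Skil, a corepressor and feedback target, rose (0.62 ± 0.15), while the signal transducer Smad3 (-0.65 ± 0.12) and the corepressor Ski (-0.53 ± 0.12) fell. Of 11 further inhibitors and turnover genes Pmepa1, another inhibitory target, rose (0.70 ± 0.15) and Dact2 fell (-0.80 ± 0.21). The median log2 fold change was -0.14, 0.01, -0.19 and 0.01 in these 4 lists. In ESCs edgeR and DESeq2 called 0 of these 31 genes, with 6 at an unadjusted p under 0.05, beside 3019 of all 16641 genes.

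Mesendoderm genes that Nodal signalling can induce were also described. In NPC-ΔZF1 3 of 6 tested were higher than in NPC-WT and 0 lower, namely Foxa2 (log2 fold change 2.68 ± 0.21), Lhx1 (1.21 ± 0.37) and Eomes (1.15 ± 0.16), and the median was 0.61. Their summed level was 10.7 to 12.8 CPM in NPC-WT, where Mesp1 was at 0, and 33.8 to 36.5 in NPC-ΔZF1. In ESC-ΔZF1 Eomes alone of the 6 was dysregulated, higher by 1.00 ± 0.16.

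Markers of extraembryonic endoderm, a lineage that ESC cultures can also form and that expresses some of these mesendoderm genes and Cer1, moved with the same libraries. Of 15 such markers 14 were tested, and 12 were higher in NPC-ΔZF1 than in NPC-WT and 0 lower (Hhex and Otx2 were not called), with a median log2 fold change of 2.80. They were led by Ttr (4.12 ± 0.44), Hnf4a (3.96 ± 0.32) and Cubn (3.61 ± 0.45). The 15 markers summed to 400.0 to 407 CPM in NPC-WT, where Apoa1 was at 0, and to 3303 to 3453 CPM in NPC-ΔZF1, where none was at 0. In ESC-WT and ESC-ΔZF1 they summed to 198 to 248 and 175 to 206 CPM, and Sox7 alone of the 14 was dysregulated, higher in ESC-ΔZF1 by 2.01 ± 0.32 on the log2 scale. The pluripotency markers summed to 851 to 1111 CPM in NPC-WT and 1125 to 1143 in NPC-ΔZF1, with 3 of 12 higher (Fgf5, Sox2 and Utf1) and 0 lower. The neural progenitor markers summed to 151 to 205 and 164 to 164 CPM, with 2 of 7 tested higher (Zic1 and Sox1) and 1 lower (Nes). In ESCs Sox1 alone of the 7 was dysregulated, higher in ESC-ΔZF1 by 0.94 ± 0.20 on the log2 scale. The part of these cell type markers in the Nodal, Gdf3 and Lefty differences was not tested.

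**Figure D2:**
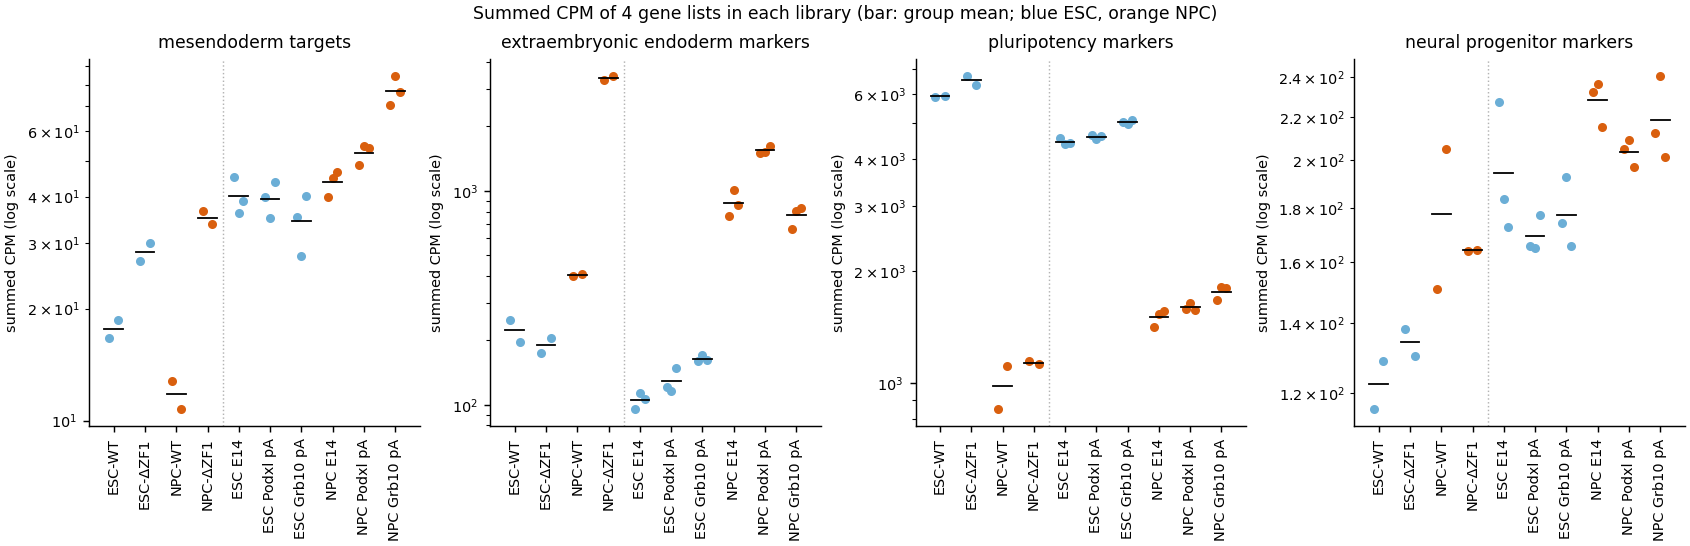
Summed CPM of the mesendoderm, extraembryonic endoderm, pluripotency and neural progenitor lists (panels, vertical axes) in every library of the 10 groups, with each point a library. The extraembryonic endoderm sum is at 400.0 to 407 in NPC-WT and at 3303 to 3453 in NPC-ΔZF1, above every other group.

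How the members change as ESCs become NPCs was examined in each of the 5 lines. Across all lines Tdgf1, Lefty2 and Smad7 fell and Foxh1 rose, whereas the direction of Nodal and Lefty1 depended on the line. In E14 2 of 8 members rose, beside 16.5% of all genes, and 3 fell, beside 16.3%. In Podxl pA 2 rose and 3 fell, beside 17.1% and 14.7% of all genes. In Grb10 pA 3 rose and 3 fell, beside 17.2% and 17.4%. In the WT rescue line 2 rose and 6 fell, beside 22% and 19.9%. In the ΔZF1 rescue line 2 rose and 5 fell, beside 20.4% and 16.9%. These comparisons share libraries with those between lines and are not independent of them.

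**Figure D3:**
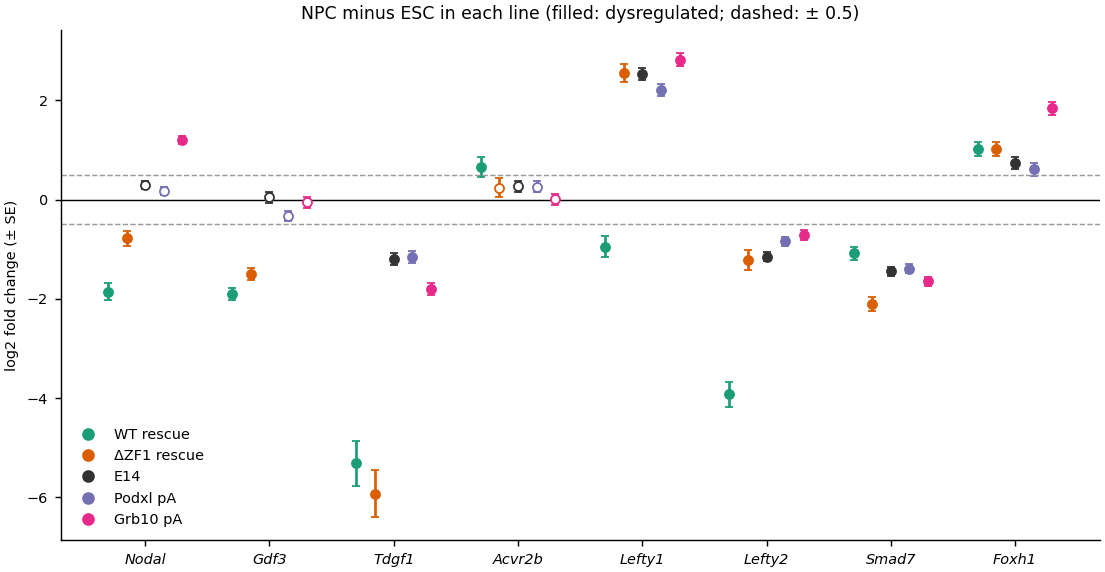
Log2 fold change of NPCs against ESCs (vertical axis) for the 8 members tested in each of the 5 lines, with bars of 1 SE, where filled points were dysregulated. Lefty1 lies at 2.54 in E14 and 2.55 in the ΔZF1 rescue line but at -0.95 in the WT rescue line, and Tdgf1 is the lowest point in both rescue lines.

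Among the ligands, Nodal in the parental line was at 77.4, 75.9 and 72.2 CPM in ESC E14 and 91.6, 96.7 and 89.3 in NPC E14. All NPC E14 libraries were above all ESC E14 libraries, with a log2 fold change of 0.30 ± 0.08 (SE, edgeR adjusted p = 0.00313) that lies under the threshold of 0.5. In the rescue lines Nodal went the other way, and fell by 1.85 ± 0.17 (SE) in the WT line and by 0.78 ± 0.15 in the ΔZF1 line on the log2 scale. Gdf3 was at 99.2, 98.5 and 99.8 CPM in ESC E14 and 103, 106 and 98.1 in NPC E14, overlapping groups with a log2 difference of 0.05 ± 0.11 (SE, edgeR adjusted p = 0.747). In the rescue lines Gdf3 fell, with -1.91 ± 0.12 in the WT line and -1.50 ± 0.12 in the ΔZF1 line. On leaving out NPC-WT replicate 1 or 2 the WT values were -1.59 or -2.07 for Nodal and -1.77 or -2.03 for Gdf3, all called, and without ESC E14 replicate 1 the E14 values were 0.34 and 0.06.

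Of the inhibitors, Lefty1 was at 78.1, 73.6 and 85.4 CPM in ESC E14 and 506, 465 and 396 in NPC E14. This rise of 2.54 ± 0.12 (SE, edgeR adjusted p = 1.83e-15) on the log2 scale was the largest among the members of that line. In the ΔZF1 rescue line Lefty1 rose by 2.55 ± 0.18, while in the WT rescue line it fell (-0.95 ± 0.21), a call lost without ESC-WT replicate 2, at -0.66 with an edgeR adjusted p of 0.091. Lefty2 was at 263, 248 and 268 CPM in ESC E14 and 119, 108 and 126 in NPC E14, a fall with a log2 fold change of -1.15 ± 0.09 (SE, edgeR adjusted p = 8.89e-11). The pair of paralogs thus moved in opposite directions in E14. In the rescue lines Lefty2 changed by -3.92 ± 0.25 with WT and -1.22 ± 0.20 with ΔZF1. Smad7 was at 208, 186 and 190.3 CPM in ESC E14 and 67.6, 75.6 and 71.1 in NPC E14, a fall with a log2 fold change of -1.44 ± 0.09 (SE, edgeR adjusted p = 3.01e-13), and it changed by -1.08 ± 0.14 and -2.11 ± 0.14 in the WT and ΔZF1 rescue lines. Every one of these E14 and WT calls held without the libraries that stood apart: without NPC-WT replicate 1 or 2 the WT values were -0.77 or -1.16 for Lefty1, -3.39 or -4.43 for Lefty2 and -0.88 or -1.30 for Smad7, and without ESC E14 replicate 1 the E14 values were 2.55, -1.12 and -1.37.

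The coreceptor Tdgf1 was at 491, 475 and 508 CPM in ESC E14 and 251, 176 and 221 in NPC E14, a log2 fold change of -1.19 ± 0.12 (SE, edgeR adjusted p = 5.66e-09). In the rescue lines the fall was far larger, at -5.31 ± 0.46 with WT and -5.92 ± 0.47 with ΔZF1, from 503 CPM or more in each ESC library to 26.6 or less in each NPC library. Without NPC-WT replicate 1 or 2 the WT value was -4.57 or -6.46. Foxh1 was at 61.3, 49 and 39.2 CPM in ESC E14 and 80.6, 87.7 and 84.9 in NPC E14, a rise of 0.74 ± 0.13 (SE, edgeR adjusted p = 2.65e-05), and it rose by 1.02 ± 0.14 and 1.02 ± 0.13 in the WT and ΔZF1 rescue lines. The receptor Acvr2b was at 56.9, 57.7 and 61.7 CPM in ESC E14 and 80.3, 70.0 and 61 in NPC E14, with overlap and a log2 difference of 0.27 ± 0.12 (SE, edgeR adjusted p = 0.0592). In the WT rescue line Acvr2b rose by 0.66 ± 0.19 (SE, edgeR adjusted p = 0.0183), a call that was lost without ESC-WT replicate 1 or 2 and that fell to 0.30 without NPC-WT replicate 2. The Foxh1 rise in the WT line was 1.17 or 0.87 without NPC-WT replicate 1 or 2, and without ESC E14 replicate 1 the E14 values were -1.18 for Tdgf1, 0.92 for Foxh1 and 0.26 for Acvr2b, the last not called.

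Whether the change on differentiation differed between the rescue lines and E14 was tested in a model of all 26 libraries, in a pair of comparisons added after the values had been seen. The lines, the treatment and the experiment cannot be told apart between these tables, so a difference belongs to all of them together. The paper describes rescue after differentiation into NPCs, so the rescue NPCs may also have been older at harvest than NPC E14. In the WT rescue line 5 of 8 members had a lower log2 fold change than in E14, beside 17.8% of all 14742 genes tested, and 0 had a higher change, beside 17.4% (1 at an unadjusted p under 0.05, Smad7, and 0 by DESeq2). At that unadjusted p there were 6 members in either direction, beside 6984 of all genes tested. The difference of log2 fold changes was -2.17 ± 0.16 (SE, edgeR adjusted p = 1e-11) for Nodal and -1.97 ± 0.17 (SE, edgeR adjusted p = 3.17e-10) for Gdf3. It was -3.52 ± 0.25 (SE, edgeR adjusted p = 7.07e-12) for Lefty1, -2.81 ± 0.22 (SE, edgeR adjusted p = 5.56e-11) for Lefty2 and -4.14 ± 0.35 (SE, edgeR adjusted p = 2.88e-10) for Tdgf1. Both Lefty genes and both ligands therefore took different courses in the WT rescue line and in E14. With NPC-WT replicate 1 or 2 left out, the differences were -1.91 or -2.42 for Nodal, -1.84 or -2.11 for Gdf3, -3.31 or -3.72 for Lefty1, -2.25 or -3.31 for Lefty2 and -3.40 or -5.30 for Tdgf1, all called. Smad7 (0.54) and Acvr2b (0.69) were also called without NPC-WT replicate 1, and without ESC E14 replicate 1 the same 5 members were called.

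In the ΔZF1 rescue line 4 members differed from E14 with a lower change, beside 12.6% of all genes, and 0 with a higher one, beside 11.9% (0 also at an unadjusted p under 0.05 and by DESeq2). These were Nodal with -1.11 ± 0.14 (SE, edgeR adjusted p = 1.04e-06), Gdf3 with -1.58 ± 0.16 (SE, edgeR adjusted p = 2.43e-08), Tdgf1 with -4.76 ± 0.35 (SE, edgeR adjusted p = 6.19e-11) and Smad7 with -0.70 ± 0.15 (SE, edgeR adjusted p = 0.0008). For the Lefty genes no difference from E14 was detected, with -0.02 ± 0.22 (SE, edgeR adjusted p = 0.956) for Lefty1 and -0.10 ± 0.18 (SE, edgeR adjusted p = 0.719) for Lefty2, although their CPM levels, from tables normalised separately, were lower than in E14 in both states. Without ESC E14 replicate 1 the same 4 members were called. A p that misses the threshold does not show that the lines behave alike.

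Markers of other cell types moved along with differentiation in all lines. The extraembryonic endoderm sum went from 95.5 to 113 CPM in ESC E14 to 763 to 1010 in NPC E14, where 11 of 12 tested markers rose and 0 fell, and in the WT rescue line 8 of 14 rose and 2 fell. The pluripotency sum went from 4407 to 4563 to 1413 to 1563 CPM in E14, with 9 of 12 markers down and 3 up, and from 5875 to 5944 to 851 to 1111 in the WT rescue line, with 10 down and 2 up. The neural progenitor sum was 173 to 227 CPM in ESC E14 and 215 to 236 in NPC E14, with 3 of 6 markers up and 1 down as given above. Their part in the changes of the members was not tested.

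Of the other pathway genes, 2 of 28 tested rose and 6 fell in E14, beside 16.5% and 16.3% of all genes. The share that rose was thus smaller, and the share that fell larger, than among all genes. In the WT rescue line 11 of 31 rose and 5 fell, beside 22% and 19.9%. In E14 0 of 4 ligands and processing enzymes rose and 3 fell, led by Inhbb, an activin subunit (-5.38 ± 0.36), and in the WT rescue line 2 of 5 rose and 3 fell, again with Inhbb falling most (-5.12 ± 0.34). Of the receptors 1 of 5 rose and 2 fell in E14, where Tgfbr2 fell (-1.44 ± 0.20), and 3 of 6 rose and 0 fell in the WT rescue line, where Tgfbr2 rose (1.00 ± 0.21). Of 9 Smads and nuclear partners 1 rose and 0 fell in E14, Skil (1.40 ± 0.09), and 4 rose and 1 fell in the WT rescue line, led by Smad3 (2.03 ± 0.13). Of the inhibitors and turnover genes 0 of 10 rose and 1 fell in E14, Pmepa1 (-1.37 ± 0.15), and 2 of 11 rose and 1 fell in the WT rescue line, which was also Pmepa1 (-1.55 ± 0.16). The median log2 fold changes of these 4 lists were -1.28, 0.05, 0.05 and -0.10 in E14, beside -0.01 over all genes.

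**Figure D4:**
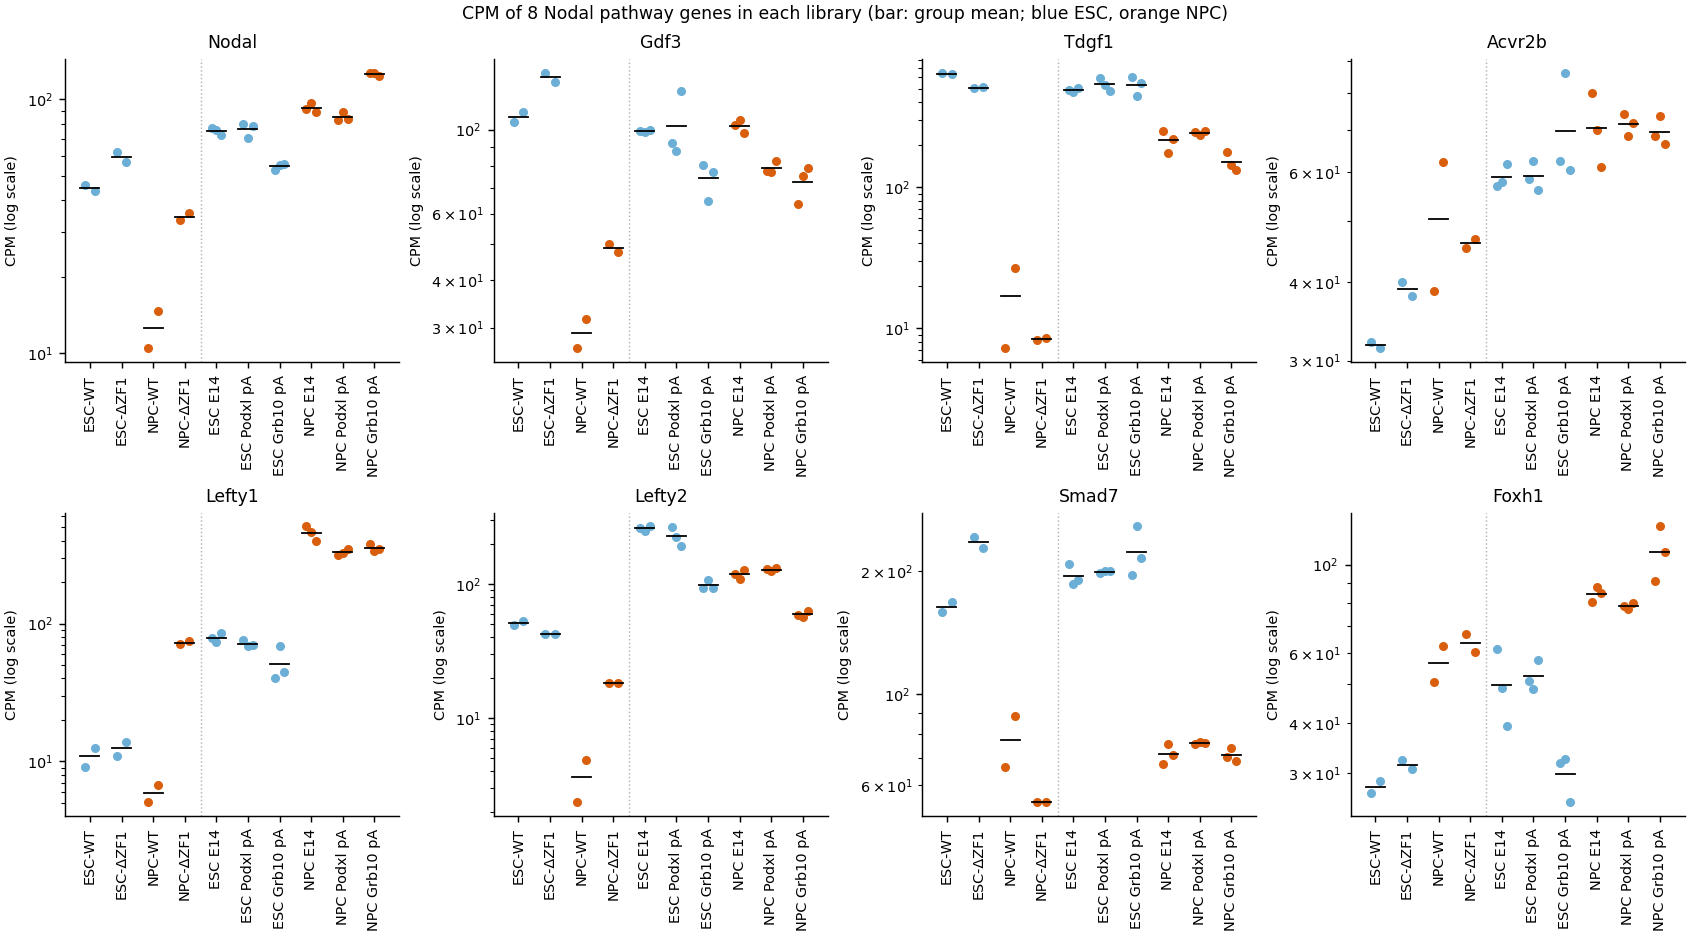
CPM of the 8 members that passed the filter in every library (points, log axis), by group, with a bar at each group mean, ESC groups in blue and NPC groups in orange. Lefty1 runs from 5.08 CPM in an NPC-WT library to 506 in an NPC E14 library, and Tdgf1 is lowest in the NPC groups of the rescue lines.

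Levels between genes were compared per kilobase of exon (CPM per kb). In ESC E14 Tdgf1 was highest at 187 ± 6.21 (SD, n = 3), followed by Lefty2 at 99.6 ± 4.0, Lefty1 at 45 ± 3.39, Smad7 at 43.1 ± 2.6, Gdf3 at 40.9 ± 0.276, Foxh1 at 36.5 ± 8.1, Nodal at 35.9 ± 1.27 and Acvr2b at 15 ± 0.659. The ranges of Lefty1 and Smad7, of Gdf3 and Foxh1, and of Foxh1 and Nodal overlapped. In NPC E14 Lefty1 led at 259 ± 31.8, then Tdgf1 at 82.3 ± 14.3, Foxh1 at 61.8 ± 2.63, Lefty2 at 45.1 ± 3.45, Nodal at 44.2 ± 1.81, Gdf3 at 42.2 ± 1.62, Acvr2b at 17.9 ± 2.45 and Smad7 at 15.8 ± 0.886, with overlap between Lefty2 and Nodal, Nodal and Gdf3, and Acvr2b and Smad7. An inhibitor thus stood above both ligands in each state of the parental line.

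In the rescue lines the order differed. ESC-WT was led by Tdgf1 at 244 ± 4.41 CPM per kb (SD, n = 2) and Gdf3 at 44.6 ± 2.01, with Lefty1 lowest of the tested members at 6.19 ± 1.37. In NPC-WT Foxh1 led at 41.4 ± 6.09, and Lefty1 at 3.35 ± 0.651 and Lefty2 at 1.39 ± 0.684 lay below Nodal at 6.01 ± 1.43. In NPC-ΔZF1 Foxh1 was at 46.6 ± 3.57 and Lefty1 came next at 41.4 ± 1.03, above Nodal at 16.5 ± 0.717, while Tdgf1 was lowest of the tested members at 3.2 ± 0.0578. The ratio of Lefty1 to Lefty2 per kb was 0.277 to 0.351 across ESC-WT libraries and 2.03 to 3.18 across NPC-WT libraries, and 5.86 to 6.01 in NPC-ΔZF1. In the truncation table it was 0.440 to 0.473 in ESC E14, 4.66 to 6.38 in NPC E14 and 8.10 to 9.46 in NPC Grb10 pA. The balance of the paralogs shifted from Lefty2 to Lefty1 with differentiation in every line.

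Truncation of Podxl, which encodes a cell-surface sialomucin, was not accompanied by a dysregulated member. By edgeR 0 of 8 were called in Podxl pA relative to E14 in ESCs, beside 0.0829% of all genes higher and 0.256% lower, and DESeq2 called 0. At an unadjusted p under 0.05 there was 1 (Lefty2), beside 1220 of all 13268 genes tested. In NPCs 0 were called, beside 0.384% higher and 0.166% lower, and DESeq2 called 0. There were 2 at an unadjusted p under 0.05 (Lefty1 and Gdf3), beside 1350 of all genes. The difference of these effects was called for 0, beside 0.0678% higher and 0.0301% lower, and for 0 by DESeq2. There were 2 at an unadjusted p under 0.05 (Lefty2 and Gdf3), beside 1355 of all genes.

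Nodal in the Podxl pA line was at 80.0, 70.3 and 78.3 CPM in ESCs and 83, 88.8 and 83.5 in NPCs, log2 differences from E14 of 0.01 ± 0.08 and -0.12 ± 0.08 (SE). Lefty1 came closest to a call: it was at 75.7, 69.1 and 69.5 CPM in ESCs and 315, 325 and 350.1 in NPCs, where every library was below every NPC E14 library and the log2 fold change was -0.46 ± 0.11 (SE, edgeR adjusted p = 0.0421). It passed the p threshold but not the fold threshold, and without NPC E14 replicate 3 it was -0.55 and called. Lefty2 was at 265, 223 and 191 CPM in ESCs and 129, 124 and 131 in NPCs, overlapping E14 in both. Tdgf1 was at 598, 534 and 483 CPM in ESCs and 248, 233 and 249.9 in NPCs, and Gdf3 at 92.3, 88 and 126 and 77.6, 77.2 and 82.5. The NPC Podxl pA values of Gdf3 lay below those of NPC E14, with a log2 difference of -0.37 ± 0.11 (SE, edgeR adjusted p = 0.147). Smad7, Foxh1 and Acvr2b differed from E14 by between -0.10 and 0.08 on the log2 scale in both states. Extraembryonic endoderm markers moved in the same libraries, with 6 of 12 higher and 0 lower in NPC Podxl pA, led by Hnf4a (1.28 ± 0.26), and sums of 1510 to 1628 CPM beside 763 to 1010 in NPC E14. Of 6 neural progenitor markers tested 0 were higher and 1 lower in NPC Podxl pA, namely Sox1 (-0.63 ± 0.11).

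Truncation of Grb10, which encodes an adaptor of insulin and growth factor receptors, was accompanied by lower Lefty2 in both states. The same E14 libraries serve as the control for Podxl pA and Grb10 pA, so the 2 sets of differences are not independent. In ESCs 3 of 8 members were lower in Grb10 pA, beside 4.58% of all genes, and 0 were higher, beside 4.51% (1 at an unadjusted p under 0.05, Smad7, and 0 by DESeq2). In NPCs 2 were lower, beside 8.64%, and 0 higher, beside 7.9% (2 at an unadjusted p under 0.05, Nodal and Foxh1, and 0 by DESeq2). In ESCs 6 of 8 members had an unadjusted p under 0.05 in either direction, beside 3824 of all 13268 genes tested. In NPCs there were also 6, beside 5209. The median log2 fold change of the members was -0.44 in ESCs and -0.19 in NPCs, beside 0.01 over all genes in both.

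**Figure D5:**
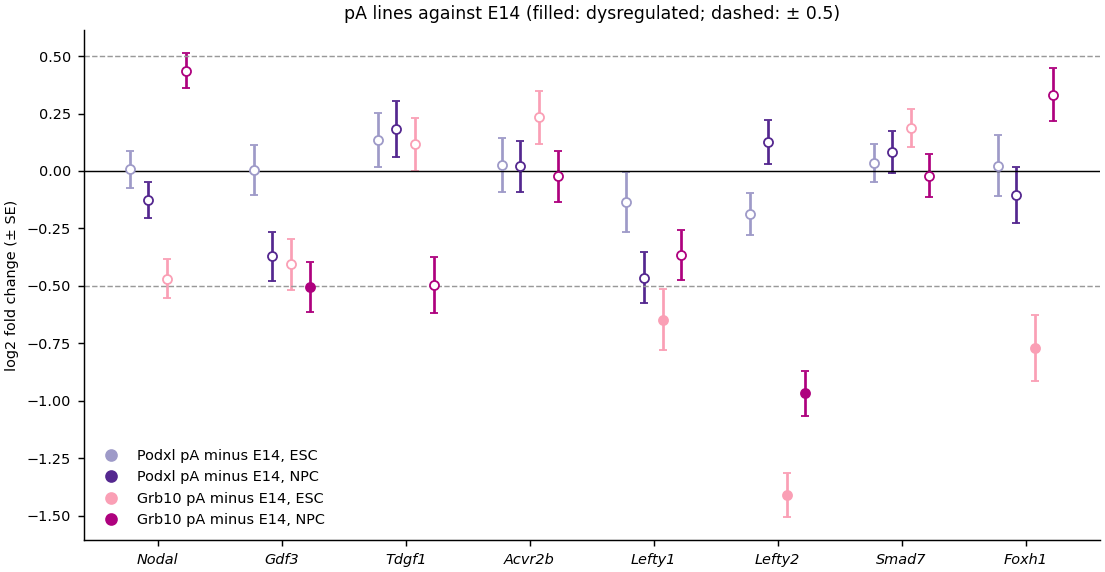
Log2 fold change of Podxl pA and Grb10 pA against E14 (vertical axis) for the 8 members tested, in ESCs and NPCs, with bars of 1 SE, where filled points were dysregulated. Lefty2 in Grb10 pA, at -1.41 in ESCs and -0.97 in NPCs, is the lowest point in each state.

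Lefty2 was at 93, 107 and 94.1 CPM in ESC Grb10 pA and 59.2, 56.8 and 63.3 in NPC Grb10 pA. Every library was below every E14 library of its state, with log2 fold changes of -1.41 ± 0.10 (SE, edgeR adjusted p = 1.38e-10) in ESCs and -0.97 ± 0.10 (SE, edgeR adjusted p = 6.07e-08) in NPCs. Lefty1 was at 40.5, 68.7 and 44.5 CPM in ESCs and 377, 338 and 345 in NPCs. In ESCs Lefty1 was down-regulated, with a log2 fold change of -0.65 ± 0.13 (SE, edgeR adjusted p = 0.00136), a call lost without ESC Grb10 pA replicate 1 (-0.50), while without replicate 2, the library that stood apart, it was -0.89. In NPCs its log2 fold change of -0.37 ± 0.11 (SE, edgeR adjusted p = 0.0143) was under the fold threshold.

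Nodal in Grb10 pA lay below E14 in ESCs and above it in NPCs. It was at 52.8, 55.2 and 55.4 CPM in ESC Grb10 pA, below all ESC E14 libraries, and at 126, 127 and 123 in NPC Grb10 pA, above all NPC E14 libraries. Each difference was under the fold threshold, with -0.47 ± 0.08 (SE, edgeR adjusted p = 0.0003) in ESCs and 0.44 ± 0.08 (SE, edgeR adjusted p = 0.000108) in NPCs. Gdf3 was at 80.5, 64.9 and 77.5 CPM in ESCs and 63.6, 75.3 and 79 in NPCs, with log2 fold changes of -0.41 ± 0.11 (SE, edgeR adjusted p = 0.0132) and -0.51 ± 0.11 (SE, edgeR adjusted p = 0.000915). The Gdf3 call in NPCs sat at the threshold and was lost without NPC Grb10 pA replicate 1 (-0.41) or NPC E14 replicate 2 (-0.47).

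Tdgf1 was at 602, 441 and 551 CPM in ESC Grb10 pA and 179, 143 and 133 in NPC Grb10 pA. Its log2 difference from E14 was 0.12 ± 0.12 (SE, edgeR adjusted p = 0.568) in ESCs and -0.50 ± 0.12 (SE, edgeR adjusted p = 0.00323) in NPCs, just short of the fold threshold, and without NPC Grb10 pA replicate 1 or NPC E14 replicate 2 it was -0.64 or -0.63 and called. Foxh1 was at 31.8, 32.4 and 25.3 CPM in ESCs, below every ESC E14 library, and at 90.8, 125 and 107 in NPCs, above every NPC E14 library. It was down-regulated in ESCs, with a log2 fold change of -0.77 ± 0.14 (SE, edgeR adjusted p = 0.000416), and in NPCs the difference was 0.33 ± 0.12 (SE, edgeR adjusted p = 0.0347). Smad7 was at 196, 258 and 216 and 70.3, 73.8 and 68.9 CPM and Acvr2b at 62.3, 86.3 and 60.4 and 68.5, 73.5 and 66.5 CPM in ESCs and NPCs, overlapping E14 each time. Without ESC E14 replicate 1 the ESC log2 fold changes of Lefty2, Lefty1 and Foxh1 were -1.40, -0.65 and -0.60, and all stayed dysregulated, as did Lefty2 (-1.48) and Foxh1 (-0.83) without ESC Grb10 pA replicate 2.

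The effect of Grb10 pA differed between NPCs and ESCs for 3 members, 2 with a higher effect in NPCs, beside 2.86% of all genes, and 1 with a lower one, beside 3.04%. The difference was 1.10 ± 0.19 (SE, edgeR adjusted p = 0.000522) for Foxh1 and 0.91 ± 0.11 (SE, edgeR adjusted p = 2e-05) for Nodal, and both calls held on leaving out any 1 of the 12 libraries. For Tdgf1 it was -0.61 ± 0.17 (SE, edgeR adjusted p = 0.028), a call lost without any of 8 of the 12 libraries, at edgeR adjusted p from 0.0506 to 0.0974. Lefty2 did not pass the fold threshold, at 0.44 ± 0.14 (SE, edgeR adjusted p = 0.0499), and without ESC Grb10 pA replicate 2 Lefty1 (0.53) and Lefty2 (0.52) were called.

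Cell type markers moved in the Grb10 pA libraries as well. The mesendoderm genes summed to 39.8 to 46.5 CPM in NPC E14 and 70.6 to 84.5 in NPC Grb10 pA, with Eomes, 1 of 4 tested, higher (1.01 ± 0.13) and 0 lower by edgeR or DESeq2 (1 lower at an unadjusted p under 0.05). In ESCs 0 of the 4 were called by edgeR, by DESeq2 or at an unadjusted p under 0.05. Of 12 extraembryonic endoderm markers 1 was higher and 3 lower in NPC Grb10 pA, with sums of 665 to 836 CPM. Of 12 pluripotency markers 5 were higher and 1 lower in NPCs, and their sum was 1671 to 1816 CPM beside 1413 to 1563 in NPC E14. Of 6 neural progenitor markers 1 was higher and 3 lower in NPC Grb10 pA, the lower ones being Sox1 (-1.66 ± 0.12), Nes (-1.40 ± 0.16) and Pax6 (-1.12 ± 0.31). Their part in the differences of the members was not tested. Of 28 other pathway genes tested, 1 was lower in ESC Grb10 pA (Tgfb1, -1.10 ± 0.27), beside 4.58% of all genes. Dact2 alone was higher (0.56 ± 0.16), beside 4.51% of all genes. In NPCs edgeR and DESeq2 called 0 of the 28, beside 7.9% of all genes higher and 8.64% lower by edgeR. At an unadjusted p under 0.05 there were 8 of the 28 in NPCs, beside 5209 of all 13268 genes tested.

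The genes whose pattern across libraries was most like that of Nodal and Lefty1 were listed by the mean of 2 Pearson correlations of log2 CPM, 1 over the 8 rescue libraries and 1 over the 18 truncation libraries, among 13225 genes. For Nodal these were Slc3a2 (mean r = 0.930), Zic2 (0.907) and Akr1b3 (0.907). For Lefty1 they were Odc1 (0.979), Il17rd (0.971) and Enc1 (0.943). The points share the cell state, the line and the depth of each library, so the values describe these libraries only.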

How the data were processed

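RNA was sequenced from 26 libraries of 10 groups, which were assigned from the sample labels. The deposited values are raw counts per gene: the authors ran STAR with its defaults against mm10 and then featureCounts, both within the sns pipeline, without using strand and without normalization. Versions, the gene annotation and the treatment of reads with several matches are not given in the sources used here. A further 3 columns match no sample and were not used. The deposited counts ranged from 1907505 to 28730435 per library, and intervals and floors of 3 counts cover counting error only.

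Here edgeR 4.0.16 in R 4.3.3 (limma 3.58.1) was run on each table with TMM factors, its default removal of low counts and 1 mean per group, without a replicate term, and its quasi-likelihood F test was tested on simulated data. This left 16641 genes in the rescue table and 13268 in the truncation table. A gene was dysregulated when its Benjamini-Hochberg adjusted p did not exceed 0.05 and its log2 fold change reached 0.5 in size. The standard error is the log2 fold change divided by the square root of F. CPM for correlations used a prior count of 2. All comparisons, 14 in number, were made within a table, and 2 added after the values were seen used a model of both tables (14742 genes). Levels in the separately normalized tables are set side by side only as values.

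The members and lists were chosen with earlier results of these data known, and 1 gene of the mesendoderm list is not reported here. All 9 members are named, and for likeness the 3 genes with the highest mean correlation. Genes named from a list were among its 3 dysregulated genes with the largest fold change, apart from those given next. Summed levels name genes at 0, and Hhex, Otx2, Hes5, Fabp7, Msi1 and Zic2 were named after their values were seen. Alternatives were RLE normalization, no filter, a replicate block, DESeq2 1.42.0, only the groups compared, and leaving out each library. Positions and sequences are from GENCODE on GRCm38 and RefSeq on GRCm38.p6, where 4 members had a promoter entry.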

Additional observations from a re-analysis of the deposited data

Results flagged for a closer look

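No group holds 4 or more libraries, so single outlying libraries were not tested within groups. The results below were picked because the effect of the same contrast differed between cell states or lines, past both thresholds, in a test of the difference itself with edgeR. For the effect of ΔZF1 in NPCs minus that in ESCs, the log2 difference was 1.07 for Nodal, 3.5 for Lefty1, 2.7 for Lefty2 and -1.03 for Smad7, so that the inhibitors Lefty1 and Smad7 differed in opposite directions. The Nodal and Smad7 calls were lost on leaving out most single libraries, as given above. For the effect of Grb10 pA in NPCs minus that in ESCs, the log2 difference was 0.905 for Nodal, -0.613 for Tdgf1 and 1.1 for Foxh1. The Tdgf1 call there was also lost without most single libraries.

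For the change from ESC to NPC in the WT rescue line minus that in E14, the log2 difference was -2.17 for Nodal, -3.52 for Lefty1, -2.81 for Lefty2, -4.14 for Tdgf1 and -1.97 for Gdf3. For the same change in the ΔZF1 rescue line minus that in E14, it was -1.11 for Nodal, -4.76 for Tdgf1, -1.58 for Gdf3 and -0.701 for Smad7. The last 2 comparisons set lines against each other that also differ in treatment and experiment, and perhaps in age at harvest, which cannot be told apart.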

How the results depend on the processing

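Of 1512 values of members under an alternative, 1457 kept their side of the thresholds, 31 lost a call, 23 gained one and 1 turned over with a call. A value that changed direction without being called, such as that of Acvr2b above, is counted among the 1457. Of 189 counts of members called, 177 stayed within 1.5 times the reported count. The cause of the others was not tested. For ΔZF1 versus WT in ESCs the count was 1 in place of 0 with no filter on low counts, with DESeq2 and with only the groups compared (Smad7). For Grb10 pA versus E14 in NPCs it was 1 in place of 2 with no filter. On leaving out each library in turn, where a lone library is assumed to vary like the other groups, the count ran from 2 to 6 for the ΔZF1 effect in NPCs minus ESCs (4 reported), from 0 to 1 for Podxl pA versus E14 in NPCs (0 reported) and from 2 to 5 for the Grb10 pA effect in NPCs minus ESCs (3 reported). The Tdgf1 difference of the ΔZF1 effect, -0.61 and not called, turned to 0.51 and was called without NPC-WT replicate 2, and it was -1.34 without NPC-WT replicate 1. Depth limits Cer1 most, which had at most 9 counts in any library.

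Replicate numbers were taken as names only: the correlation of deviations between same-numbered libraries was under 0.1 in every comparison, from -0.0811 to 0.0801, and in the truncation lines 0 to 2 of 3 replicate numbers correlated best with their own number, as did 2 of 2 in 3 of the 4 rescue comparisons and 0 in the other. With 2 libraries per group these deviations mirror each other, so a rescue comparison could only give 0 or 2. With a replicate block the count of members called was 3 in place of 4 for the ΔZF1 effect in NPCs minus ESCs (Nodal, edgeR adjusted p = 0.0602) and 3 in place of 2 for Grb10 pA versus E14 in NPCs (Tdgf1 added), and the block changed no other count of members.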
